A study of Homo sapiens with 9 samples.

Results

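The EGF receptor family and its ligands were described here in Hep3B cells, a human hepatocellular carcinoma line, after lowering of YAP, a transcriptional coactivator held back by the Hippo pathway. The labels give Hep3B as the cell line, though the sample titles carry HUH. The members were the probe sets named for AREG, EREG, HBEGF, TGFA, BTC, EGFR, ERBB2, ERBB3 or ERRFI1, a set in which AREG is a reported YAP target. Only probe sets with 1 gene symbol in the annotation were assigned to genes. Such a probe set was found for 8 of these 9 genes, 1 for each, among 18417 genes in all. AREG had none of this kind and was not analysed here. Total RNA was measured on 9 Affymetrix gene arrays in 3 groups of 3. One group was untreated, one had been transfected with a nonsense siRNA, the transfection control, and one with a YAP-specific siRNA. All cells had grown for 24 h in full medium, and the transfected ones were lysed 24 h after siRNA was delivered with Oligofectamine. The siRNA acts transiently, no allele was changed, and untreated cells differ from both other groups in having had no transfection. Whether replicates are separate cultures is not stated in the labels, so p-values measure only the spread between these samples, which may be technical.

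Cells use this family to signal to themselves and to each other through peptide growth factors, which are made as membrane-bound precursors. Metalloproteases cut the precursors, the free ligands bind receptor tyrosine kinases that pair up, and the paired receptors feed the RAS-MAPK and PI3K-AKT arms. EREG, HBEGF, TGFA and BTC encode ligands of EGFR, ERBB2 has no known ligand and acts as a partner, ERBB3 has a weak kinase and passes signals on through PI3K, and ERRFI1 encodes an inhibitor that binds the active receptors. In liver this signalling is known for its part in hepatocyte proliferation during regeneration.

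Values are deposited log2 array signals, so a difference of 1 is a doubling, and array medians over genes lay between 7.29 and 7.34. YAP1 read 8.66 to 8.75 on the nonsense siRNA arrays, 8.62 to 8.78 on the untreated ones and 7.48 to 7.54 after YAP siRNA. Of 12 hepatocyte and hepatoma markers 11 were measured, and all 11 lay above the median signal of 7.31 over genes, at means of 8.76 to 12.4. By limma 2 of the 11 passed against nonsense siRNA, where AHSG rose by 0.29 (adjusted p = 0.0162) and FGA fell by 0.24 (adjusted p = 0.0367), and 0 passed in either of the other comparisons, where 2 had an unadjusted p under 0.05 in each. Of markers of other cell types, 2 of 5 for leukocytes, 0 of 4 for endothelium, 1 of 5 for stroma and 3 of 4 for cholangiocytes lay above it, and 0 of these 18 passed in any comparison by limma. An unadjusted p under 0.05 was found for 0 of them between YAP siRNA and nonsense siRNA, 1 between YAP siRNA and untreated cells and 2 between the controls. The summed stromal signal, as log2, ran from 9.63 to 9.67 on the untreated arrays, 9.52 to 9.54 after nonsense siRNA and 9.53 to 9.63 after YAP siRNA, so both transfected groups lay below every untreated array, YAP siRNA only just. The groups overlapped for the other lists, in the same order at 10.01 to 10.15, 9.98 to 10.05 and 10.02 to 10.10 for leukocytes, 8.47 to 8.53, 8.47 to 8.50 and 8.45 to 8.48 for endothelium, and 10.91 to 11.01, 10.84 to 11.09 and 10.95 to 11.05 for cholangiocytes. Hepatocyte and hepatoma markers summed to 14.50 to 14.53, 14.51 to 14.67 and 14.51 to 14.62. Nonsense siRNA replicate 2 stood apart: across genes its highest Pearson r, 0.9954, was with untreated replicate 2, against 0.9942 and 0.9926 with its own group. For members and pathway genes, each call that changes without it is given with and without it. In RNA of a whole culture, fewer expressing cells and less RNA per cell cannot be told apart.

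EREG, which encodes the ligand epiregulin, was the member that rose after YAP siRNA. It was higher than in either control group, by 1.33-fold against nonsense siRNA and by 1.18-fold against untreated cells. It was the only one of the 8 to pass against nonsense siRNA, where passing means an adjusted p under 0.05 by limma with all genes tested together. The background there was 4.53% of all genes passing in either direction, 1.92% as higher and 2.61% as lower.

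EREG lies on chromosome 4 in a run of family genes, in which EPGN, EREG, AREG and BTC follow each other among protein-coding genes in RefSeq's annotation (GRCh38.p14). The 250 bases before its RefSeq start, at chr4:74364895-74365144 on the plus strand, are shown because EREG was the member with the largest change. Capitals mark the one match there to GGAATG, the core motif of the TEAD factors that YAP partners, read on the opposite strand as CATTCC.

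EREG: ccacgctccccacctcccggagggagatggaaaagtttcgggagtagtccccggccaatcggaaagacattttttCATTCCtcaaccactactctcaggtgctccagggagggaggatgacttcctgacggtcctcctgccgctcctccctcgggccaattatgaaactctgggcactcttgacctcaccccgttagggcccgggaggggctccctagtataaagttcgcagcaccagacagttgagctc

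The match begins 175 bases before the start. Promoter windows of 300 bases, from 250 before to 50 after a start, were given for 8 of the 9 members, in 10 windows. GGAATG on either strand was in 2 of the 10, that of EREG and the second one of EGFR, and in 14.03% of all 35116 windows. TGANTCA, a loose form of the AP-1 motif in which N is any base, reads the same on both strands. It shared no letters with a match to the other motif in these windows. It was in 2 of the 10, the second one of EGFR (TGAGTCA and TGACTCA) and that of ERBB2 (TGATTCA), and in 7.71% of all. A match is a description of letters and was not tested as a site.

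On the arrays, EREG read 8.76, 8.72 and 8.74 in untreated cells, 8.55, 8.54 and 8.61 after nonsense siRNA, and 8.99, 8.93 and 9.01 after YAP siRNA. The 3 groups did not overlap at all: nonsense siRNA was lowest, untreated cells were in between and YAP siRNA was highest. The means were 8.74 ± 0.02 (SD, n = 3), 8.57 ± 0.04 (SD, n = 3) and 8.98 ± 0.04 (SD, n = 3) in that order. Against nonsense siRNA, EREG rose by 0.41 on the log2 scale (SE 0.0506, 95% interval 0.30 to 0.52, limma adjusted p = 0.000168). By size this was rank 30 among the 354 genes that rose.

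Against untreated cells, EREG rose by 0.24 (SE 0.0506, 95% interval 0.13 to 0.34, limma adjusted p = 0.0169), which was rank 247 of 300 genes that rose. Between the controls it differed by -0.17 (95% interval -0.28 to -0.07), and this did not pass by limma (adjusted p = 0.110). The rise against nonsense siRNA is therefore measured from a control group that itself read lower than untreated cells. It passed in all 9 fits that left out 1 array, with adjusted p at most 0.00206 by limma, and without nonsense siRNA replicate 2 the rise was 0.40. The rise against untreated cells was lost by limma without untreated replicate 2 (adjusted p = 0.0757), without YAP siRNA replicate 1 (0.0858) and when every probe set was tested (0.0512).

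**Figure D1:**
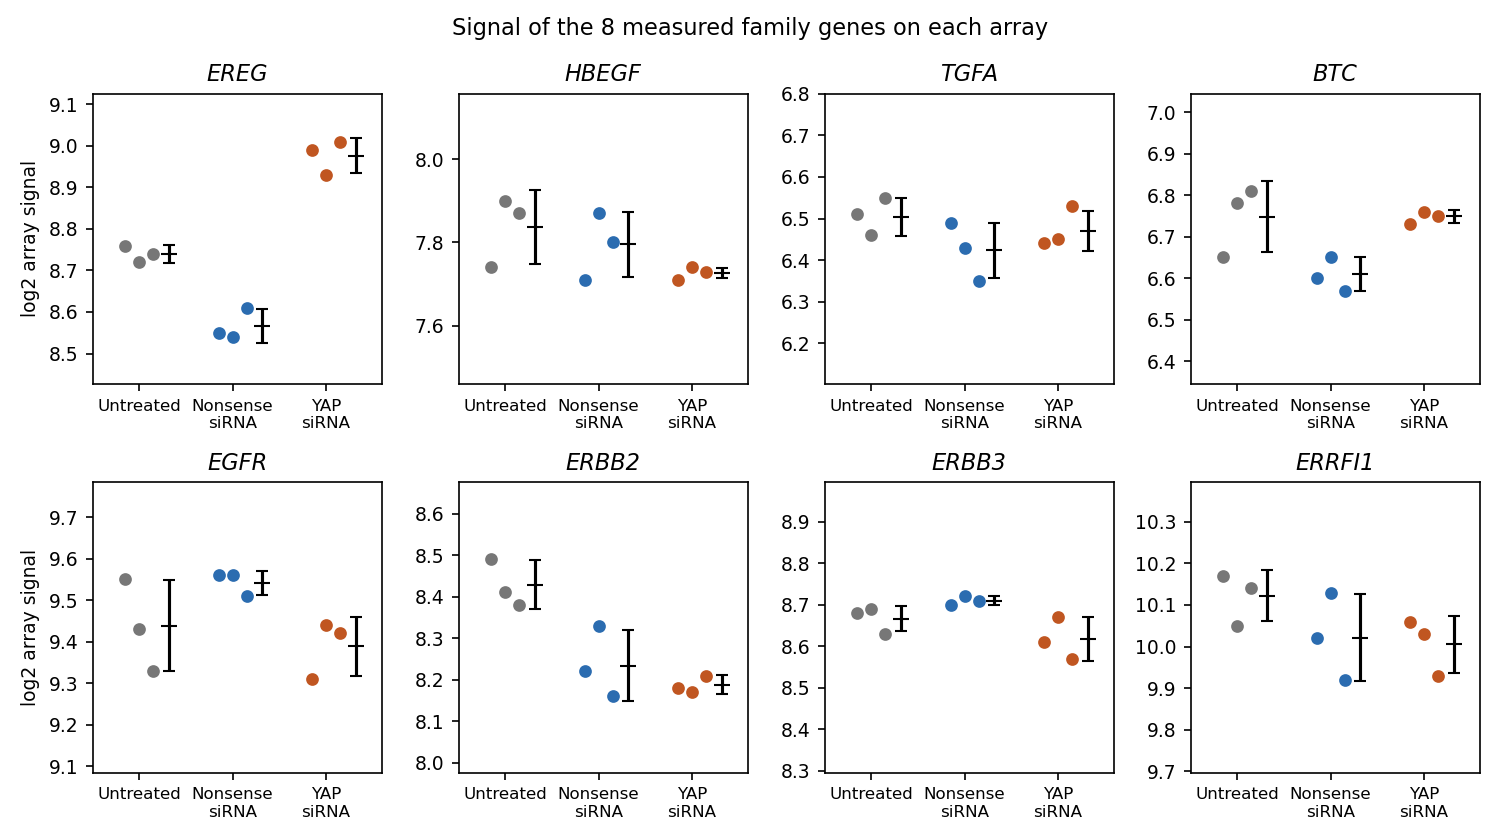
Log2 array signal of each measured family gene (y axis, every panel spanning the same 0.7 log2 units) in untreated, nonsense siRNA and YAP siRNA cells (x axis). Points are single arrays and the bars beside them the mean ± SD of 3; the 3 EREG groups lie apart, with YAP siRNA at 8.93 to 9.01, while ERBB2 is lower in both transfected groups than in untreated cells.

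The other ligand genes did not pass in any comparison. BTC, which encodes betacellulin, came nearest after YAP siRNA. It read 6.65, 6.78 and 6.81 in untreated cells, 6.60, 6.65 and 6.57 after nonsense siRNA, and 6.73, 6.76 and 6.75 after YAP siRNA. The YAP siRNA arrays lay above all 3 nonsense siRNA arrays by at least 0.08 but inside the range of untreated cells. The difference was 0.14 against nonsense siRNA (95% interval 0.02 to 0.26, limma adjusted p = 0.210) and 0.0005 against untreated cells (95% interval -0.12 to 0.12, adjusted p = 0.998).

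HBEGF, which encodes heparin-binding EGF-like growth factor, read 7.74, 7.90 and 7.87 in untreated cells, 7.71, 7.87 and 7.80 after nonsense siRNA, and 7.71, 7.74 and 7.73 after YAP siRNA. The groups overlapped in every pair, with the YAP siRNA arrays at the low end of both controls. The difference was -0.07 against nonsense siRNA (95% interval -0.19 to 0.06, limma adjusted p = 0.678) and -0.11 against untreated cells (95% interval -0.24 to 0.01, adjusted p = 0.384).

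TGFA, which encodes transforming growth factor alpha, differed by no more than its replicates did. It read 6.51, 6.46 and 6.55 in untreated cells, 6.49, 6.43 and 6.35 after nonsense siRNA, and 6.44, 6.45 and 6.53 after YAP siRNA, and all 3 groups overlapped. The difference was 0.05 against nonsense siRNA (95% interval -0.07 to 0.16, limma adjusted p = 0.791) and -0.03 against untreated cells (95% interval -0.15 to 0.08, adjusted p = 0.805). TGFA and BTC were the 2 members with a mean signal under the median over genes, at 6.47 and 6.70.

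Among the receptors, ERBB2 fell against untreated cells and not against nonsense siRNA. ERBB2 read 8.49, 8.41 and 8.38 in untreated cells, 8.22, 8.33 and 8.16 after nonsense siRNA, and 8.18, 8.17 and 8.21 after YAP siRNA. Both transfected groups lay below every untreated array, and they overlapped each other. The summed signal of the stromal markers also lay lower in both transfected groups. COL1A1, the brightest of them, averaged 8.51 in untreated cells, 8.28 after nonsense siRNA and 8.37 after YAP siRNA. COL3A1, DCN and PDGFRB averaged lower in both transfected groups too. LUM went the other way, at 6.43, 6.57 and 6.44 in the same order. The part of these markers in the result was not tested. YAP siRNA against untreated cells gave a fall of 0.24 on the log2 scale, to 84.6% of the untreated level (SE 0.0566, 95% interval -0.36 to -0.12, limma adjusted p = 0.0283). With EREG this made 2 of 8 members that passed in that comparison, where the background was 3.09% of all genes, 1.63% as higher and 1.46% as lower.

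Nonsense siRNA against untreated cells gave an ERBB2 difference of -0.19 (95% interval -0.32 to -0.07, limma adjusted p = 0.111), and YAP siRNA against nonsense siRNA gave -0.05 (95% interval -0.17 to 0.07, adjusted p = 0.799). Without nonsense siRNA replicate 2, the highest of its group for ERBB2, the first of these was -0.24 and passed by limma (adjusted p = 0.0227). The fall against untreated cells was lost by limma without untreated replicate 1 (adjusted p = 0.133) or 2 (0.0788), without YAP siRNA replicate 1 (0.117) or 2 (0.123), and when every probe set was tested (0.107).

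EGFR read 9.55, 9.43 and 9.33 in untreated cells, 9.56, 9.56 and 9.51 after nonsense siRNA, and 9.31, 9.44 and 9.42 after YAP siRNA. The YAP siRNA arrays lay below every nonsense siRNA array but overlapped the untreated arrays, which were the most spread of the 3 groups. The difference was -0.15 against nonsense siRNA (95% interval -0.28 to -0.02, limma adjusted p = 0.220) and -0.05 against untreated cells (95% interval -0.18 to 0.08, adjusted p = 0.742). Neither passed.

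ERBB3 varied least of the 8 members, with a span of 0.15 over all 9 arrays. It read 8.68, 8.69 and 8.63 in untreated cells, 8.70, 8.72 and 8.71 after nonsense siRNA, and 8.61, 8.67 and 8.57 after YAP siRNA. The YAP siRNA arrays lay just below the nonsense siRNA arrays and overlapped the untreated ones. The difference was -0.09 against nonsense siRNA (95% interval -0.20 to 0.02, limma adjusted p = 0.427) and -0.05 against untreated cells (adjusted p = 0.687).

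ERRFI1, the feedback inhibitor, read 10.17, 10.05 and 10.14 in untreated cells, 10.02, 10.13 and 9.92 after nonsense siRNA, and 10.06, 10.03 and 9.93 after YAP siRNA. All 3 groups overlapped, and the replicates of nonsense siRNA alone spanned more than any difference between group means. The difference was -0.02 against nonsense siRNA (95% interval -0.15 to 0.12, limma adjusted p = 0.952) and -0.12 against untreated cells (95% interval -0.25 to 0.02, adjusted p = 0.386).

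**Figure D2:**
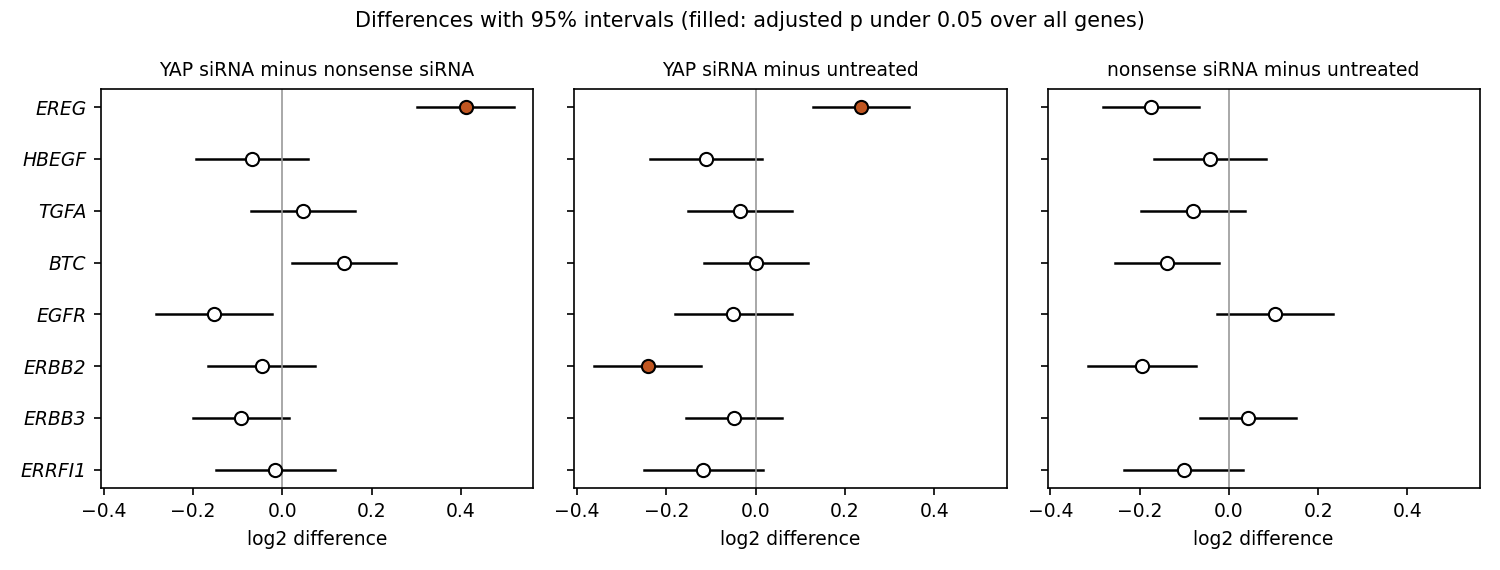
Log2 difference (x axis) of each measured family gene (y axis) in the 3 comparisons, with 95% intervals from limma; filled points had an adjusted p under 0.05 over all genes. EREG is filled at 0.41 and 0.24 in the comparisons with YAP siRNA, ERBB2 at -0.24 against untreated cells, and 0 points are filled for nonsense siRNA against untreated cells.

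As a group, 1 of the 8 members rose and 0 fell after YAP siRNA against nonsense siRNA, with a median difference of -0.03 beside 0.01 over all genes. Arrays did not overlap for 4 of 8 (EREG, BTC, EGFR and ERBB3), where 20.2% of all genes did not overlap. Against untreated cells 1 rose and 1 fell, with a median of -0.05 beside -0.01 over all genes, and 2 of 8 did not overlap (20.5% of all genes). Between the controls 0 of 8 passed by limma, against a background of 0.614%, 0.337% as higher and 0.277% as lower, and 3 of 8 had an unadjusted p under 0.05, as did 19.5% of all genes. In the comparisons of YAP siRNA with nonsense siRNA and with untreated cells, 3 and 2 of 8 did, beside 15.8% of all genes in each. Between the controls their median was -0.09 beside -0.02 over all genes, and 3 of 8 did not overlap (22.7% of all genes). These comparisons share arrays, so their values are not independent of each other.

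The 3 genes whose values followed EREG most closely over the 9 arrays were LCP1, SLC43A2 and STAP2. After centring each gene on its own mean, they differed from EREG by a root mean square of 0.05, 0.05 and 0.06 on the log2 scale, where a flat gene would differ by 0.17. LCP1, which encodes the actin-bundling protein plastin-2, averaged 8.49 in untreated cells, 8.35 after nonsense siRNA and 8.70 after YAP siRNA. SLC43A2, an amino acid transporter gene, averaged 8.54, 8.37 and 8.73, and the adaptor gene STAP2 averaged 7.84, 7.74 and 8.12. They were chosen for this likeness among genes of at least the median signal, and it was not tested.

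The other family genes were flat at low signal. EGF, EPGN, NRG1, NRG2, NRG3, NRG4 and the receptor gene ERBB4 had means of 5.99 to 7.16, all 7 under the median over genes. By limma 0 of 7 passed in any of the 3 comparisons, and 0 had an unadjusted p under 0.05. EPGN, the neighbour of EREG that encodes epigen, differed by -0.02 between YAP siRNA and nonsense siRNA (95% interval -0.14 to 0.09, limma adjusted p = 0.906).

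In the list of ligand release and receptor turnover, ADAM17 was the gene that passed against nonsense siRNA. This was 1 of 16 (6.25%), beside 4.53% of all genes. The lists, here and below, were chosen with earlier results of these data known, so such shares are descriptions and no measure of enrichment. ADAM17 encodes the main sheddase of several ligands, epiregulin among them, and it fell by 0.37 (SE 0.0586, limma adjusted p = 0.00132) where EREG rose. In the comparison with untreated cells the ADAM17 fall was 0.26 (limma adjusted p = 0.0213). FRMD8, which encodes a stabiliser of the ADAM17 partner iRhom, fell there by 0.29 (adjusted p = 0.00587). So 2 of 16 passed against untreated cells (12.5%), beside 3.09% of all genes. FRMD8 was at -0.19 against nonsense siRNA (adjusted p = 0.0586), a difference that passed without untreated replicate 3 (0.0355) and with only genes at or above the median signal tested (0.0435). RHBDF1, an iRhom gene, passed against untreated cells without YAP siRNA replicate 3, at -0.27 (0.0247). By limma the ADAM17 fall against untreated cells was lost in 4 of 9 fits without 1 array: without untreated replicate 1 (adjusted p = 0.0735) or 2 (0.109), or YAP siRNA replicate 1 (0.0843) or 3 (0.0597). It was also lost with arrays centred on their medians (0.0539) and when every probe set was tested (0.106).

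Downstream of the receptors, SOS2 and PIK3CB fell against nonsense siRNA, as 1 of 12 adaptor and RAS-MAPK genes (8.33%) and 1 of 8 PI3K-AKT genes (12.5%) beside 4.53% of all genes. Of 18 adaptor and RAS-MAPK genes listed only 12 were measured. Among them SOS2, a RAS exchange factor gene, fell by 0.29 against nonsense siRNA (limma adjusted p = 0.0187). Against untreated cells SOS2 was at -0.13 (adjusted p = 0.390), and nonsense siRNA against untreated cells gave 0.17 (adjusted p = 0.199). By limma 0 of the 12 passed against untreated cells or between the controls, where 1 and 6 had an unadjusted p under 0.05, beside 15.8% and 19.5% of all genes. Between the controls, without nonsense siRNA replicate 2, SHC1, an adaptor gene, passed at -0.27 (adjusted p = 0.0274) and SOS1, a RAS exchange factor gene, at 0.36 (0.0188), and SOS1 also passed there without YAP siRNA replicate 3 (0.0484). Of 12 PI3K-AKT genes listed only 8 were measured. Among them PIK3CB, a catalytic subunit gene of PI3K, fell by 0.58 against nonsense siRNA (SE 0.0793, limma adjusted p = 0.000387) and by 0.37 against untreated cells (adjusted p = 0.0169). Nonsense siRNA against untreated cells gave a PIK3CB difference of 0.21, which did not pass by limma (adjusted p = 0.174). None of the remaining 7 PI3K-AKT genes passed in any comparison. By limma, SOS2 was lost when nonsense siRNA replicate 1 (adjusted p = 0.0923) or 3 (0.0708) or YAP siRNA replicate 3 (0.0789) was left out and when every probe set was tested (0.118). The fall of PIK3CB against untreated cells was lost without untreated replicate 2 (0.0961) and when every probe set was tested (0.154).

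Of 20 feedback regulators and ERK response genes, 1 rose and 1 fell in each comparison with YAP siRNA, which is 10% of the list beside 4.53% of all genes against nonsense siRNA and 3.09% against untreated cells. ETV1, an ETS transcription factor gene, rose by 0.29 against nonsense siRNA (limma adjusted p = 0.0152) and by 0.40 against untreated cells (adjusted p = 0.00231). CCND1, which encodes cyclin D1, fell by 0.25 against nonsense siRNA (adjusted p = 0.0167) and was at -0.18 against untreated cells (adjusted p = 0.110). IER3, an immediate early gene, was at -0.20 against nonsense siRNA (adjusted p = 0.123) and in the comparison with untreated cells it fell by 0.37 (adjusted p = 0.00446). By limma, IER3 passed against nonsense siRNA without nonsense siRNA replicate 2, at -0.25 (adjusted p = 0.0362), and was lost against untreated cells with every probe set tested (0.0626). Without that same array 2 more genes of the list passed, DUSP5, an ERK phosphatase gene, at 0.22 against nonsense siRNA (limma adjusted p = 0.0316) and ETV4, an ETS factor gene, at -0.25 between the controls (0.0260). ETV4 also passed there with quantile normalization (0.0339), with only genes at or above the median signal tested (0.0476) and without YAP siRNA replicate 3 (0.0476). The feedback genes SPRY1, SPRY2, SPRY4, SPRED1, SPRED2, DUSP4, DUSP5, DUSP6 and DUSP7 did not pass in any comparison with all 9 arrays. Against nonsense siRNA, by limma, ETV1 was lost when YAP siRNA replicate 2 (adjusted p = 0.0829) or nonsense siRNA replicate 1 (0.0736) was left out, or with every probe set tested (0.0953). CCND1 was lost there without YAP siRNA replicate 1 (0.0979) or nonsense siRNA replicate 1 (0.0720), with quantile normalization (0.0515) or with every probe set tested (0.0649).

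Of other receptor tyrosine kinase genes of liver cells, MET rose while INSR and IGF1R fell in both comparisons with YAP siRNA. Of 9 measured, 1 rose and 2 fell against nonsense siRNA (33.3%, beside 4.53% of all genes). Against untreated cells 1 rose and 3 fell (44.4%, beside 3.09% of all genes). These genes too were chosen with earlier results known, so the shares do not measure enrichment. A difference from the ERBB receptors was not tested. MET, the receptor gene of hepatocyte growth factor, rose by 0.27 against nonsense siRNA (limma adjusted p = 0.0148) and by 0.31 against untreated cells (adjusted p = 0.00867). INSR, the insulin receptor gene, fell by 0.39 (adjusted p = 0.00125) and by 0.40 (adjusted p = 0.00149), and IGF1R fell by 0.30 (adjusted p = 0.00427) and by 0.25 (adjusted p = 0.0194). FGFR3 was at -0.08 against nonsense siRNA (adjusted p = 0.663) and fell by 0.42 against untreated cells (adjusted p = 0.00151). Like ERBB2 it was lower in both transfected groups: nonsense siRNA against untreated cells gave a fall of 0.35 (limma adjusted p = 0.0275). FGFR3 was the 1 pathway gene of 72 to pass there (1.39%, beside 0.614% of all genes). The summed signal of the stromal markers lay lower in both transfected groups too, though LUM did not, and their part in the result was not tested.

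Several of these calls were lost when 1 array was left out, which also leaves fewer arrays to measure the spread. The difference did not always shrink. MET against nonsense siRNA, 0.27 with all arrays, was 0.22 without YAP siRNA replicate 2 but 0.28 without nonsense siRNA replicate 1. FGFR3 between the controls was also lost without YAP siRNA replicate 1, which is not in that comparison, at an unchanged -0.35. By limma, MET against nonsense siRNA was lost when nonsense siRNA replicate 1 (adjusted p = 0.0512) or 3 (0.0607) or YAP siRNA replicate 2 (0.0872) was left out, and against untreated cells without untreated replicate 1 (0.0562) or YAP siRNA replicate 2 (0.0604). IGF1R against untreated cells was lost without untreated replicate 1 (0.107) or 2 (0.0855) or YAP siRNA replicate 1 (0.0965). With every probe set tested, MET (0.0776 and 0.0700) and IGF1R against untreated cells (0.0834) were lost as well. FGFR3 between the controls was lost in 5 of 9 fits without 1 array, with a highest adjusted p of 0.206 without nonsense siRNA replicate 1, with arrays centred on their medians (0.0628), with only the 6 arrays compared (0.0585) and with every probe set tested (0.186).

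**Figure D3:**
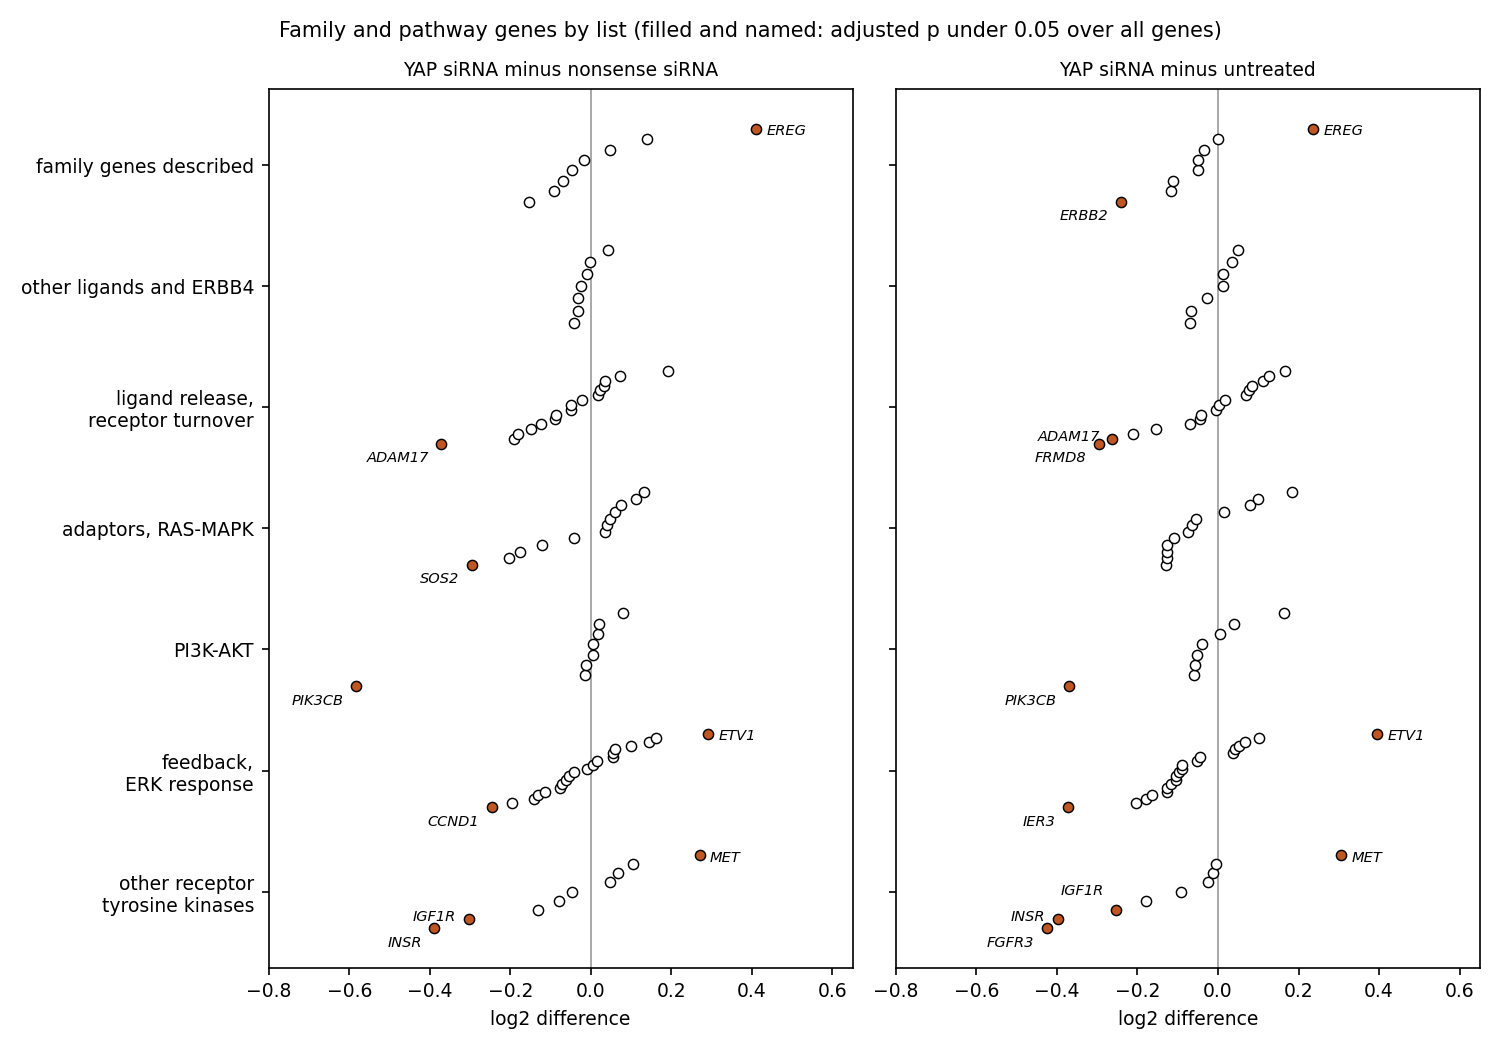
Log2 difference (x axis) of each measured gene, grouped by list (y axis), for YAP siRNA against nonsense siRNA (left) and against untreated cells (right); filled and named points had a limma adjusted p under 0.05 over all genes. EREG and ETV1 lie to the right in both panels, PIK3CB lies farthest left in the left panel at -0.58, and ERBB2 is filled in the right panel only.

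Over the 6 pathway lists together, without the members, 72 of 82 genes were measured. Of these 72, 2 rose and 6 fell against nonsense siRNA, and 2 rose and 7 fell against untreated cells. These are 11.1% and 12.5% of the genes, beside 4.53% and 3.09% of all genes. The lists were chosen with earlier results known, and outside the other family genes most of each list lay above the median signal. With only the upper 50% of genes by signal tested, 891 and 578 genes passed, a larger share than over all genes. A contrast with genes of like signal was not tested. The median differences of the 72 were -0.01 and -0.05, beside 0.01 and -0.01 over all genes. The YAP list of 11 genes includes YAP1, the TEAD genes TEAD1 and TEAD4, and target genes of YAP. In each of these comparisons 7 of the 11 fell (63.6%), 0 rose and 4 did not pass. Among the 7 is YAP1, the target of the siRNA itself. EREG rose in both comparisons, and a contrast with that list, chosen with earlier results known, was not tested.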

How the data were processed

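The deposited values were log2 array signals per probe set; how the authors corrected background, summarised probes and normalized arrays is not given in the sources used here, and the log2 unit was inferred from the range of the values. Per the labels, biotinylated cRNA was hybridised. The sample titles carry HUH, but the cell line is given as Hep3B, and that was followed. Of 33297 probe sets, 19460 had 1 gene symbol in the platform annotation, 1754 had several and 12083 were not listed; the brightest probe set stood for a gene with several.

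Group means over the 9 arrays were compared in one model with limma 3.58.1 under R 4.3.3 (lmFit, eBayes), with Benjamini-Hochberg adjustment over 18417 genes, two-sided. The fit was tested on simulated data. Members and lists were chosen with earlier results of these data known; the rule named all members, YAP1, up to 4 passing genes per list and comparison, and the 3 genes most like the member with the largest change. SHC1, SOS1, DUSP5, ETV4, RHBDF1 and the marker genes were named after their values were seen. Of the YAP list, YAP1 alone is given by value. Alternatives were other scalings, filters, probe set rules, variance models, array subsets and the replicate number as a block. Promoters came from RefSeq (GRCh38.p14). The number of arrays limits the precision. Figures used matplotlib 3.10.9.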

Additional observations from a re-analysis of the deposited data

How the results depend on the processing

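The rise of EREG against nonsense siRNA passed under every alternative run. Against that control, 834 genes and 1 member passed, and 396 genes passed at an adjusted p under 0.01. The gene count was 1287 without nonsense siRNA replicate 2, untreated replicate 3 and YAP siRNA replicate 3 together, a fit chosen after seeing the data. With every probe set tested, 424 of 33297 probe sets passed, which is not a count of genes. Leaving out 1 array gave 426 to 1231 genes and 1 to 1 members. Against untreated cells, 569 genes and 2 members passed. These were 250 and 0 at 0.01, and 1560 genes without the 3 arrays. With every probe set tested, 205 probe sets and 0 members passed. Leaving out 1 array gave 279 to 775 genes and 0 to 2 members. Between the controls 113 genes passed, 62 higher and 51 lower, which became 54 and 23 with arrays centred on their medians, and 0 members passed. The gene count was 67 with the 6 arrays alone, 65 with the replicate block, 11 at 0.01 and 2319 without the 3 arrays. Without those 3 arrays 1 member, ERBB2, passed (limma adjusted p = 0.00917). With every probe set tested, 0 probe sets passed. Leaving out 1 array gave 11 to 1470 genes, the highest without nonsense siRNA replicate 2, and 0 to 1 members.

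Replicate numbers did not pair the samples: deviations of same-numbered arrays correlated at -0.34 to 0.34, over 0.1 in 3 of 9 pairs. Of the 3 arrays left out together, nonsense siRNA replicate 2 and YAP siRNA replicate 3 correlated at 0.47 in these deviations. Untreated replicate 3 correlated at 0.34 with YAP siRNA replicate 3 and at 0.07 with nonsense siRNA replicate 2. A factor shared by these arrays was not tested. With the replicate block the counts were 789 and 509 genes in the comparisons with YAP siRNA, and the calls of the 8 members stayed as they were.

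Differences near 0 changed sign without passing. ERRFI1 against nonsense siRNA was 0.0071 with quantile normalization, 0.0759 without the 3 arrays and -0.0675 to 0.0375 without 1 array. Between the controls, with arrays centred, YAP1 was 0.0229 and INSR 0.0163, with ranges of -0.0391 to 0.0375 and -0.053 to 0.0287 without 1 array. MET there was -0.0074 with quantile normalization and -0.0072 to 0.0655 without 1 array, and IGF1R was -0.002 without the 3 arrays. Against untreated cells without 1 array, BTC ran from -0.0471 to 0.0338 and EGFR from -0.1015 to 0.0072.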
